A study of Mus musculus with 36 samples.

Results

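The change that followed a switch from a high-fat to a low-fat diet was compared between 2 tissues of male mice, eWAT (epididymal white adipose tissue, a visceral fat depot beside the testis) and liver. The members are the 13206 genes present in both deposited count tables, of 17536 genes in either table. A further 846 genes were in the liver table only and 3484 in the eWAT table only, and these enter no comparison here. All mice were wild-type C57BL/6 of the F0 generation, given chow until 6 weeks of age and a study diet until 24 weeks. HF mice had the high-fat diet for 18 weeks. HFLF mice had it for 9 weeks and then the low-fat diet for 9 weeks. Each of the 4 groups (eWAT HF, eWAT HFLF, liver HF, liver HFLF) has 6 libraries, 24 of the 36 in the series. Libraries of mice kept on the low-fat diet throughout are not used, so a change described here is a change from HF to HFLF, and a return to the level of lean mice was not examined. The labels do not say whether the libraries of a group come from separate mice, so p-values measure the spread between libraries, which may be partly technical.

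White adipocytes store triglyceride and shrink when energy supply falls, while hepatocytes make, burn and export fatty acids and carry out most drug metabolism. In obese visceral fat, macrophages gather around enlarged adipocytes, matrix is laid down, and the adipocytes lower their lipogenic and mitochondrial genes. In the liver, dietary fat raises genes of fatty acid oxidation and uptake, and dietary carbohydrate raises lipogenic genes. Both tissues answer to insulin, glucocorticoids and the circadian clock.

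Total counts ran from 8.94 M to 24.02 M in eWAT libraries and from 11.66 M to 20.27 M in liver libraries, and the shared genes held 96.0 to 97.8% of them. Hepatocyte markers summed to between 90511 and 108798 CPM (counts scaled to the library total) in the liver, and adipocyte markers to between 12876 and 35999.5 in eWAT, so each tissue carried its defining transcripts. Markers of another tissue were found in some libraries, and whether they came from that tissue was not tested. The 10 hepatocyte markers reached 312 CPM in eWAT. Epididymal and sperm markers reached 529 CPM in eWAT HF 1 and 182 in eWAT HFLF 6, with 5 of the 18 in the eWAT table. The 5 adipocyte markers in the liver table (of 10; Adipoq, Plin1, Lep, Retn and Acvr1c are not in it) summed to 275 and 233 CPM in liver HF 1 and HF 4 and to at most 104 in the other liver libraries. Levels of single genes, here and below, are TMM-scaled CPM, a different scale from that of the sums, so they do not add up to them. Among those 5, Cidec was 196 CPM and Fabp4 35.4 CPM in liver HF 1. In liver HF 4 Cfd was 103 CPM and Fabp4 22.8 CPM. In eWAT HF, Fabp4 ran from 4142 to 10340.1 CPM, Cidec from 1701 to 4731 and Cfd from 119.6 to 1219. For some of the results below, values without the libraries holding such markers are given as well.

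In eWAT 4631 of the 13206 genes changed (35.1%), 2091 of them higher in HFLF (15.8%) and 2540 lower (19.2%). In the liver 1020 changed (7.72%), 439 higher (3.32%) and 581 lower (4.4%), at an adjusted p under 0.05 in edgeR's quasi-likelihood test. The tissue difference, which is the log2 change in eWAT minus the log2 change in the liver, passed the same test for 2734 genes (20.7%), with 1433 positive (10.9%) and 1301 negative (9.85%). With upper-quartile scaling 58.4% of the eWAT calls were higher, against 45.2% with the scaling used here, and 62.7% of the tissue differences were positive, against 52.4%. With TMM scaling within each tissue 52.1% of the liver calls were higher, against 43.0%, and 49.3% of the tissue differences were positive. Which direction held more calls thus depended on the scaling in each comparison. The count of liver calls was 494 to 1284 when 1 library was left out, lowest without liver HF 4. It was also more than 1.5 times below the full count without any 1 of liver HF 2, HF 3, HFLF 4, HFLF 5 and HFLF 6. Leaving out liver HF 1 and HF 4 together gave 295 liver calls.

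Most genes with a tissue difference had changed in eWAT alone. Of these 935 rose in eWAT (7.08% of all genes) and 982 fell there (7.44%), with no call in the liver. The 982 became 607 without eWAT HF 3, 608 without eWAT HF 4 and 1491 without eWAT HF 5, and 549 without the 2 eWAT libraries with epididymal transcripts. Upper-quartile scaling gave 1217 rises and 737 falls, and rises outnumbered falls in most of the single-library omissions too. Another 140 rose in the liver alone (1.06%) and 205 fell in the liver alone (1.55%). These were as few as 76 (without liver HF 2) and 110 (without liver HF 4), and both were also reduced by more than 1.5 times without liver HF 3, HFLF 4 or HFLF 6.

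In both tissues 203 genes changed the same way (1.54%), 85 up and 118 down. With upper-quartile scaling these were 136 up and 91 down. The 203 became 94 without liver HF 4 and were also more than 1.5 times fewer without liver HF 1, HF 3, HFLF 4, HFLF 5 or HFLF 6. Opposite changes were called for 125 genes (0.947%): 89 rose in eWAT and fell in the liver, and 36 did the reverse. The 125 became 56 without liver HF 4 and 37 without liver HF 1 and HF 4 together. They were also more than 1.5 times fewer without any 1 of eWAT HF 4, HFLF 1, HFLF 5 and HFLF 6, liver HF 2 and HF 3 and liver HFLF 4, HFLF 5 and HFLF 6. Without the epididymal libraries of eWAT they numbered 55, and without the 4 with hepatocyte transcripts 63. Together the 328 genes changed in both tissues numbered 150 to 416 when 1 library was left out. They were more than 1.5 times fewer without any 1 of liver HF 2, HF 3, HF 4, HFLF 4, HFLF 5 and HFLF 6, and 90 without liver HF 1 and HF 4 together. The median change over all genes was 0.00 in eWAT and -0.02 in the liver on the log2 scale. In eWAT all HFLF libraries lay above all HF libraries for 5.36% of the 13206 genes and below them for 4.6%. In the liver these shares were 1.36% and 2.66%, and groups without overlap below are to be read beside them.

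**Figure D1:**
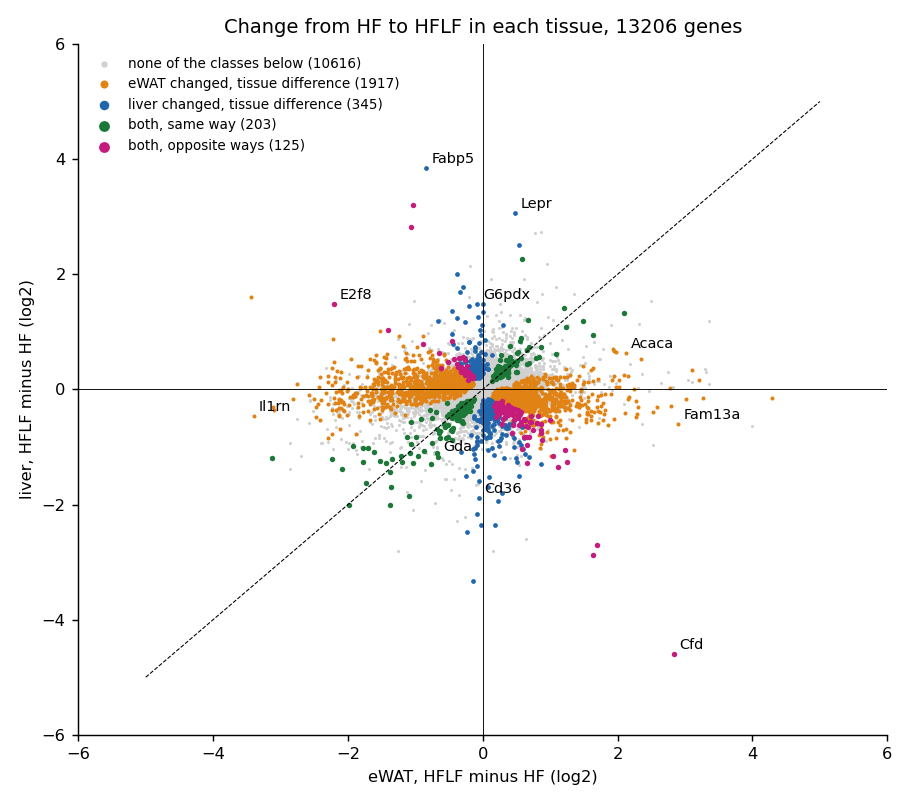
Log2 change from HF to HFLF in eWAT (x axis) and liver (y axis) for each of the 13206 genes, coloured by the calls at an adjusted p under 0.05; the dashed line marks equal change. The eWAT-only genes (1917) spread along the x axis, the liver-only genes (345) along the y axis, and Cfd lies far into the quadrant of higher in eWAT and lower in liver.

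Genes of mitochondrial respiration rose in eWAT, with no call in the liver. Of 76 nuclear-encoded subunits of the respiratory chain, 60 rose in eWAT and none fell, while edgeR's test called none in the liver. At an unadjusted p under 0.05 there were 15 lower in the liver, DESeq2 called 1 and limma voom 4, and edgeR called 4 without liver HF 5. The tissue difference passed for 53, all positive, and the list's median change was 0.33 in eWAT and -0.13 in the liver. Ndufa5, a subunit of complex I, ranged from 16 to 23.4 CPM in eWAT HF (median 20.6) and from 25.7 to 33.4 in eWAT HFLF (median 30.4), with no overlap. In the liver it ranged from 45.8 to 59.3 CPM in HF (median 52.1) and from 41.7 to 58.5 in HFLF (median 46.1). The liver groups overlapped, with HFLF 1, HFLF 2 and HFLF 3 below the lowest HF library. Its tissue difference was 0.73 ± 0.13 (log2, approximate standard error, adjusted p = 0.00133). Other complex I subunits moved likewise: the tissue difference was 0.76 for Ndufa10 and 0.68 for Ndufb8. Of the 8 genes of the mitochondrial genome in both tables, 5 rose in eWAT and edgeR, DESeq2 and voom called none in the liver, with 0 at an unadjusted p under 0.05. The count of 5 fell to 2 without eWAT HFLF 5 and was also more than 1.5 times lower without eWAT HF 1, HF 2, HF 3, HFLF 1 or HFLF 6.

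Genes of the citric acid cycle also rose in eWAT. Of 29 genes of the cycle and of pyruvate entry, 19 rose in eWAT and 4 fell in the liver, and 16 had a positive tissue difference (medians 0.31 in eWAT and -0.14 in the liver). Idh3b, a subunit of mitochondrial isocitrate dehydrogenase, rose by 0.42 in eWAT and had a liver value of -0.11. Pdk2, a kinase that inhibits pyruvate dehydrogenase, rose by 0.89 in eWAT with a liver value of -0.29. The 4 liver calls were reduced to as few as 1 (without liver HF 1). They were also reduced by more than 1.5 times without liver HF 2, HF 3 or HF 4 and without any 1 of liver HFLF 1, 3, 4, 5 and 6.

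Breakdown of branched-chain amino acids had the highest share of members with a tissue difference among the lists described. All 20 genes in both tables rose in eWAT, 2 fell in the liver, and 19 had a positive tissue difference (medians 0.67 in eWAT and -0.18 in the liver). Bckdha, the catalytic subunit of the branched-chain ketoacid dehydrogenase, rose by 0.73 in eWAT with a liver value of -0.17. Its exons overlap those of B3gnt8 on the other strand, so reads of the pair may not be separated. Aldh6a1, which acts late in valine breakdown, rose by 1.06 in eWAT with a liver value of -0.34.

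The 2 genes of this pathway that fell in the liver were Ppm1k and Hsd17b10. Ppm1k, the phosphatase that switches the ketoacid dehydrogenase on, ranged from 6.51 to 9.52 CPM in eWAT HF (median 7.76) and from 12.3 to 18.0 in eWAT HFLF (median 15). Liver levels ran from 92.1 to 145 CPM in HF (median 125) and from 73.0 to 92.1 in HFLF (median 86.0). The eWAT groups did not overlap and the liver groups met only at their edge. Ppm1k rose by 0.99 ± 0.12 in eWAT (adjusted p = 9.35e-06) and fell by 0.53 ± 0.11 in the liver (adjusted p = 0.00639), a tissue difference of 1.51 ± 0.16 (adjusted p = 2.45e-05).

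Hsd17b10, a mitochondrial dehydrogenase of isoleucine breakdown, ranged from 33.0 to 63.1 CPM in eWAT HF (median 47.7) and from 67.4 to 83.8 in eWAT HFLF (median 73.6). Across liver libraries it ranged from 203 to 366 CPM in HF (median 292) and from 108 to 202 in HFLF (median 171). Neither pair of groups overlapped, and the order was reversed between the tissues. The tissue difference was 1.48 ± 0.24 (adjusted p = 4.96e-04). Its eWAT call was lost when the 4 eWAT libraries with over 100 CPM of hepatocyte markers were left out (0.59).

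The mitochondrial ribosome, which translates the mitochondrial genome, showed small opposite shifts. Of 78 genes, 20 rose and 1 fell in eWAT, 10 fell in the liver, and 37 had a positive tissue difference (medians 0.13 in eWAT and -0.16 in the liver). The 37 fell to 23 without eWAT HF 4 and were also reduced by more than 1.5 times without eWAT HFLF 3, eWAT HFLF 5 or liver HF 2. The 20 became 12 without eWAT HF 4, and also moved by more than 1.5 times without eWAT HF 1, HF 3, HFLF 3 or HFLF 5. The 10 became 4 without liver HF 3, and also moved that far without eWAT HF 2, HFLF 2, HFLF 5 or HFLF 6 or liver HF 1, HF 2, HF 4, HFLF 4 or HFLF 6. Mrpl45, a protein of the large subunit, had a median of 23.7 CPM in eWAT HF (21.8 to 29.5) and 30.8 in eWAT HFLF (27.4 to 32.7). Its liver medians were 43.1 in HF (34.5 to 48.8) and 32.3 in HFLF (28.4 to 33.8), with no overlap in the liver and some in eWAT. The tissue difference of Mrpl45 was 0.76 ± 0.11 (adjusted p = 3.27e-04), and its eWAT call was lost without the 4 eWAT libraries with hepatocyte transcripts (0.31).

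**Figure D2:**
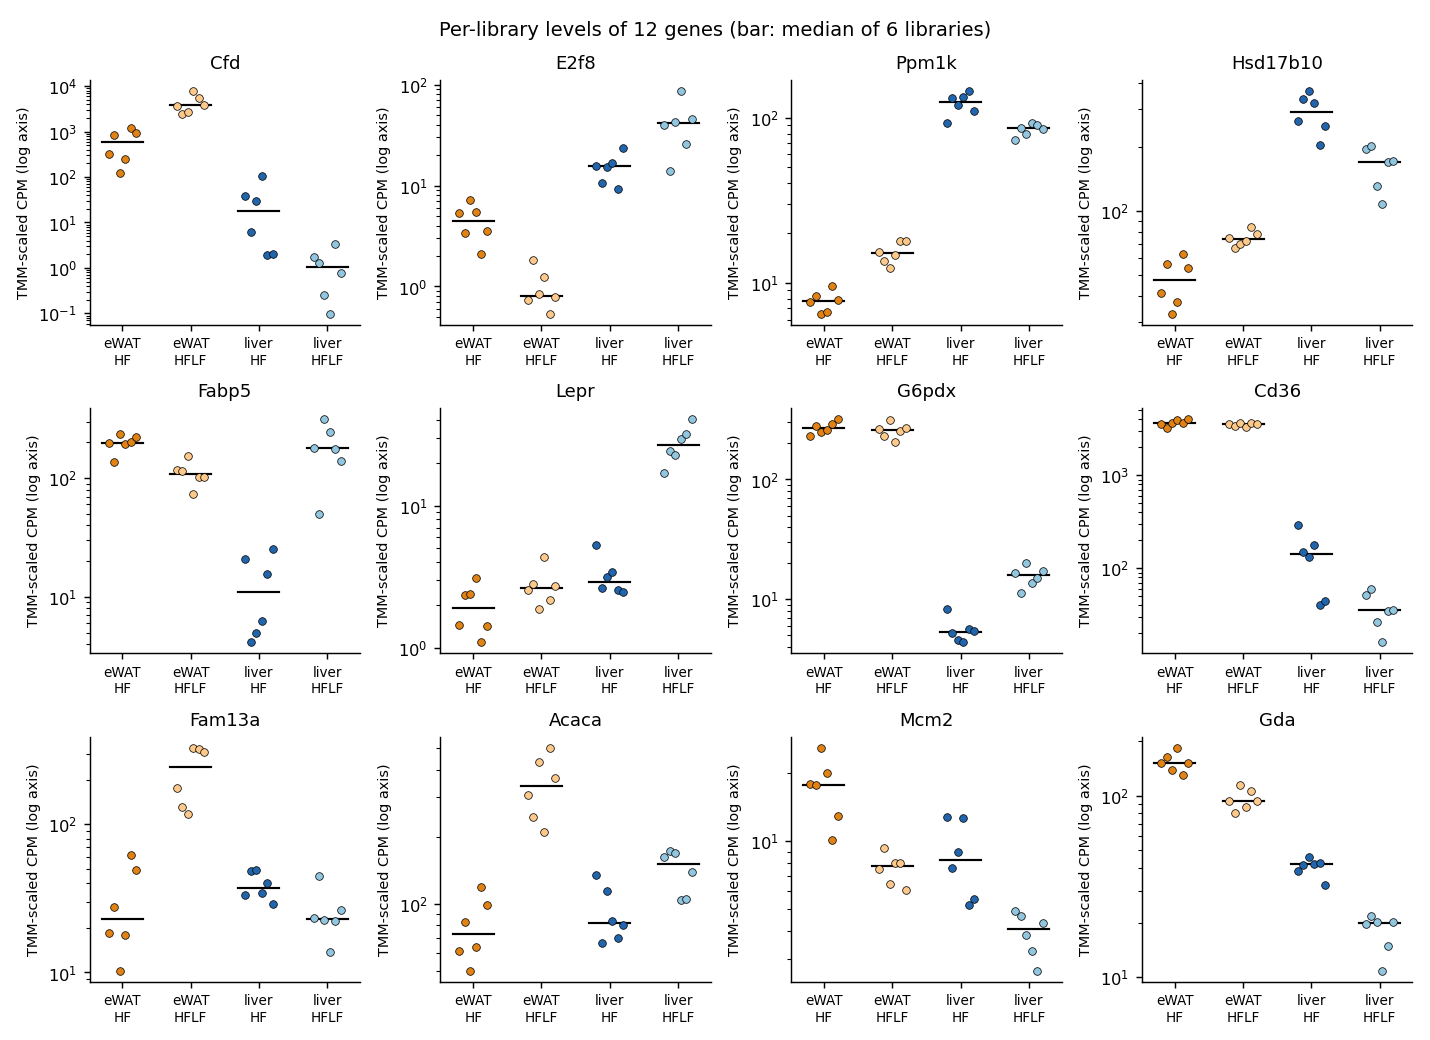
TMM-scaled CPM of 12 genes in each of the 24 libraries, on a log axis, with the median of each group of 6 as a bar. Ppm1k and Hsd17b10 were higher in HFLF in eWAT and lower in HFLF in the liver, Lepr and G6pdx separated by diet in the liver alone, and Fam13a and Acaca separated by diet in eWAT alone.

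Genes of fatty acid oxidation and ketone synthesis fell mainly in the liver. Of 38 genes, 13 fell in the liver and none rose there, 10 rose and 3 fell in eWAT, and 20 had a positive tissue difference (medians 0.19 in eWAT and -0.27 in the liver). The liver count was 1 without liver HF 4 and more than 1.5 times below 13 without any 1 of liver HF 1, HF 2 and HF 3 or of the 6 liver HFLF libraries. The 20 tissue differences became 13 without eWAT HF 1, and also fell by more than 1.5 times without eWAT HF 4, HFLF 1, HFLF 5 or HFLF 6 or liver HF 2, HF 4, HFLF 1, HFLF 3 or HFLF 5. Hadh, which catalyses the third step of beta-oxidation, ranged from 457 to 734 CPM in liver HF (median 668) and from 317 to 408 in liver HFLF (median 374). In eWAT it ranged from 137 to 299 CPM in HF (median 212) and from 237 to 338 in HFLF (median 319.7). The liver groups did not overlap and the eWAT groups did. Hadh fell by 0.75 in the liver (adjusted p = 0.00631) and rose by 0.44 in eWAT (adjusted p = 0.0317), with a tissue difference of 1.19 ± 0.22 (adjusted p = 0.00141).

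Drug metabolism genes rose mainly in eWAT, and some antioxidant genes fell in the liver. Of 31 drug metabolism genes in both tables (of 50 in the list), 16 rose in eWAT, 4 fell in the liver and 17 had a positive tissue difference (medians 0.76 and -0.28). Gstt1, a glutathione transferase, rose by 1.22 in eWAT with a liver value of -0.30. Aldh1a1, a retinal dehydrogenase, fell by 1.28 in the liver (adjusted p = 0.00385) and rose by 0.66 in eWAT (adjusted p = 0.0353). Its tissue difference was 1.93 ± 0.34. Of 25 antioxidant genes, 6 rose and 5 fell in eWAT, 1 rose and 7 fell in the liver, and 9 had a positive tissue difference. The falls were 20% of the list in eWAT, near the 19.2% of all genes, and 28.0% in the liver, against 4.4%. The rises were 24.0% in eWAT, against 15.8%, and 4.0% in the liver, near 3.32%. The positive tissue differences were 36.0%, against 10.9%. The 7 became 4 without liver HF 2 and moved by more than 1.5 times without liver HF 3, HFLF 3, HFLF 4, HFLF 5 or HFLF 6. The 5 became 2 without eWAT HF 3 and moved that far without eWAT HF 1, HF 4, HFLF 5 or HFLF 6. Gclc, the rate-limiting enzyme of glutathione synthesis, fell by 0.60 in the liver (adjusted p = 0.00121) and rose by 0.28 in eWAT (adjusted p = 0.0306). Its tissue difference was 0.88 ± 0.14.

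Lipogenic genes rose mostly in eWAT, and some rose in the liver. Of 26 genes, 12 rose and 1 fell in eWAT, 5 rose and 2 fell in the liver, and 2 rose in both (medians 0.50 in eWAT and 0.10 in the liver). The 12 rises in eWAT and 5 in the liver were larger shares than the 15.8% and 3.32% of all genes. The eWAT fall was 3.85% of the list, against 19.2%, and the liver falls 7.69%, against 4.4%. The tissue difference passed for 10, with 7 positive (26.9%, against 10.9%) and 3 negative, near the 9.85% of all genes. Leaving out eWAT HF 1 reduced the 7 to 4, and leaving out eWAT HF 4, HFLF 3 or HFLF 5 or liver HF 3 also reduced them by more than 1.5 times. The 3 negative differences became 1 without eWAT HFLF 6, and moved by more than 1.5 times without liver HF 3, HF 4, HFLF 1 or HFLF 3. The 5 liver rises fell to 2 without liver HF 2 and were reduced by more than 1.5 times without liver HF 3, HF 4, HFLF 1, HFLF 3 or HFLF 6 too.

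Acaca, the carboxylase that makes malonyl-CoA for fatty acid synthesis, ranged from 50 to 119 CPM in eWAT HF (median 73.2) and from 209 to 501 in eWAT HFLF (median 338). The liver values ran from 66.2 to 134 CPM in HF (median 81.8) and from 104 to 172 in HFLF (median 150.1). The groups were separate in eWAT and overlapped in the liver. Acaca rose by 2.12 ± 0.24 in eWAT (adjusted p = 6.57e-06), and the tissue difference was 1.49 ± 0.33 (adjusted p = 0.0048). Tkt, a transketolase of the pentose phosphate pathway, rose by 1.32 in eWAT with a liver value of -0.19 and a tissue difference of 1.51. Fasn, the fatty acid synthase, rose by 1.52 in eWAT (adjusted p = 0.00109), and its tissue difference of 1.06 had an adjusted p of 0.0887. Without eWAT HFLF 4 the tissue difference of Fasn passed the test.

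G6pdx, which supplies NADPH at the entry of the pentose phosphate pathway, rose in the liver alone. It ranged from 4.38 to 8.27 CPM in liver HF (median 5.32) and from 11.3 to 20 in liver HFLF (median 15.8). In eWAT it ranged from 231 to 318 CPM in HF (median 269) and from 204 to 315 in HFLF (median 261). The liver groups were separate and the eWAT groups lay on top of each other. G6pdx rose by 1.48 ± 0.15 in the liver (adjusted p = 9.36e-06) and its tissue difference was -1.55 ± 0.20 (adjusted p = 9.63e-05). Part of its exons overlaps Ikbkg on the other strand.

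Scd1, the desaturase that makes monounsaturated fatty acids, rose in both tissues. It ranged from 5109 to 19758 CPM in eWAT HF (median 13715) and from 24602 to 40450.4 in eWAT HFLF (median 30645). In the liver it ranged from 3299.5 to 22374 CPM in HF (median 6044) and from 15945 to 26601 in HFLF (median 23924). The eWAT groups did not overlap, and liver HF 1 alone reached into the range of liver HFLF. The changes were 1.21 ± 0.40 in eWAT (adjusted p = 0.0223) and 1.42 ± 0.40 in the liver (adjusted p = 0.0329), with a tissue difference of -0.21 (adjusted p = 0.818). The eWAT call was lost without eWAT HF 3 (1.04) or HF 4 (1.12). The liver call was lost without liver HF 2 (1.29), HF 3 (1.35), HF 4 (1.33), HFLF 3 (1.38) or HFLF 6 (1.37).

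Among genes of lipid uptake and droplets, Fabp5 and Cd36 were called in the liver and not in eWAT. Fabp5, a fatty acid binding protein of macrophages, adipocytes and epithelia, ranged from 4.15 to 25.4 CPM in liver HF (median 11) and from 49.5 to 313 in liver HFLF (median 179). In eWAT it ranged from 138 to 235 CPM in HF (median 199) and from 73.2 to 155 in HFLF (median 108). Its liver level in HFLF thus came into the range of eWAT, and its liver groups did not overlap. The eWAT value of Fabp5 was -0.84 (adjusted p = 0.082), with 5 of the 6 HFLF libraries below the lowest HF library. Fabp5 rose by 3.84 ± 0.42 in the liver (adjusted p = 2.11e-05), and its tissue difference of -4.68 ± 0.56 (adjusted p = 5.03e-05) was the most negative among the genes eligible to be named.

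Cd36, a receptor for long-chain fatty acids, ranged from 40.8 to 291 CPM in liver HF (median 141) and from 16.1 to 60.4 in liver HFLF (median 35.5). In eWAT it ranged from 3263 to 3997 CPM in HF and from 3309 to 3695 in HFLF. Cd36 fell by 1.89 ± 0.36 in the liver (adjusted p = 0.00442), with the 2 lowest HF libraries inside the HFLF range, and its tissue difference was 1.84 ± 0.50 (adjusted p = 0.0142). Without liver HF 1 and HF 4, which had the highest adipocyte marker sums, its tissue difference was 1.23 and did not pass. The fall of Cd36 in the liver passed there, at -1.29. Over the 26 genes of this list, 7 fell in the liver (26.9%, against 4.4% of all genes) and 1 rose (3.85%, near 3.32%). In eWAT 4 fell (15.4%, against 19.2%) and 2 rose (7.69%, against 15.8%). The liver falls numbered 3 without liver HF 1 and were also reduced by more than 1.5 times without liver HF 4 or HFLF 4.

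Cfd (adipsin), a serine protease of the alternative complement pathway made by adipocytes, had the most positive tissue difference among the genes eligible to be named. It ranged from 119.6 to 1219 CPM in eWAT HF (median 587) and from 2392 to 7855 in eWAT HFLF (median 3796). Liver levels ran from 1.88 to 103 CPM in HF (median 17.9) and from 0.0988 to 3.36 in HFLF (median 1.03). The eWAT groups were separate and the liver groups overlapped. Cfd rose by 2.83 ± 0.77 in eWAT (adjusted p = 0.00711; 2.45 and no call without the 4 eWAT libraries with hepatocyte transcripts) and fell by 4.60 ± 0.92 in the liver (adjusted p = 0.00521), a tissue difference of 7.43 ± 1.21 (adjusted p = 5.49e-04). The liver change was -3.66 without liver HF 4. It was -2.99 without both liver HF 1 and HF 4, which no longer passed, while the tissue difference did, at 5.82. The 5 adipocyte markers in the liver table, Cfd among them, were highest in those 2 libraries, and their part in the result was not tested.

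Lepr, the leptin receptor, ranged from 2.49 to 5.3 CPM in liver HF (median 2.89) and from 17 to 40.3 in liver HFLF (median 26.7). In eWAT it ranged from 1.1 to 3.09 CPM in HF (median 1.92) and from 1.89 to 4.32 in HFLF (median 2.64). The lowest HFLF liver was above the highest HF liver, whereas the eWAT groups overlapped. Lepr rose by 3.06 ± 0.26 in the liver (adjusted p = 5.83e-07) with a tissue difference of -2.58 ± 0.37 (adjusted p = 2.47e-04). In the list of 25 insulin signal and gluconeogenesis genes, 12 rose and 2 fell in eWAT and 3 rose in the liver. The tissue difference was positive for 4 (16%, against 10.9% of all genes) and negative for 1 (4.0%, against 9.85%). The 3 liver rises became 0 without liver HF 2, and moved by more than 1.5 times without liver HF 1, HF 3, HF 4, HFLF 2, HFLF 4 or HFLF 5. Pik3r1, a regulatory subunit of phosphoinositide 3-kinase, rose by 0.83 in eWAT with a liver value of 0.01 and a tissue difference of 0.82.

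Fam13a, a gene linked to fat distribution and adipocyte insulin response, ranged from 10.3 to 61.9 CPM in eWAT HF (median 23.1) and from 118 to 328 in eWAT HFLF (median 243). Across liver libraries it ranged from 28.8 to 49.1 CPM in HF (median 37.2) and from 13.7 to 44.7 in HFLF (median 22.9). Only the eWAT groups were separate. Fam13a rose by 2.90 ± 0.38 in eWAT (adjusted p = 2.68e-05), and its tissue difference was 3.51 ± 0.52 (adjusted p = 3.22e-04). Acsm3, an acyl-CoA synthetase of medium-chain fatty acids, had a tissue difference of 3.07 ± 0.60, which was 3.67 without eWAT HF 5. Its exons overlap Eri2 on the other strand. Hsd11b1, the enzyme that regenerates active glucocorticoid inside cells, rose by 1.82 in eWAT (adjusted p = 9.35e-06) with a liver value of -0.08 and a tissue difference of 1.90.

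Genes of the circadian clock rose mainly in eWAT. Of 21 circadian genes, 10 rose and 1 fell in eWAT, edgeR called none in the liver, and the tissue difference was positive for 11 and negative for 1 (medians 0.41 and -0.10). At an unadjusted p under 0.05 the liver had 2 higher and 1 lower, and DESeq2 and voom called 1 each.

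Dbp, a transcription factor that carries clock time to metabolic genes, ranged from 25.4 to 41.3 CPM in eWAT HF (median 30.6) and from 27.5 to 98.3 in eWAT HFLF (median 66.6). Its liver range was 179 to 247 CPM in HF and 119 to 228 in HFLF, and the groups overlapped in both tissues. The tissue difference of Dbp was 1.28 ± 0.29 (adjusted p = 0.00558), though its exons share bases with Sphk2 on the other strand. Hlf, a related factor, had a tissue difference of 1.23, and Cry2, a clock repressor, of 0.83. No time of day of tissue collection was found in the labels.

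**Figure D3:**
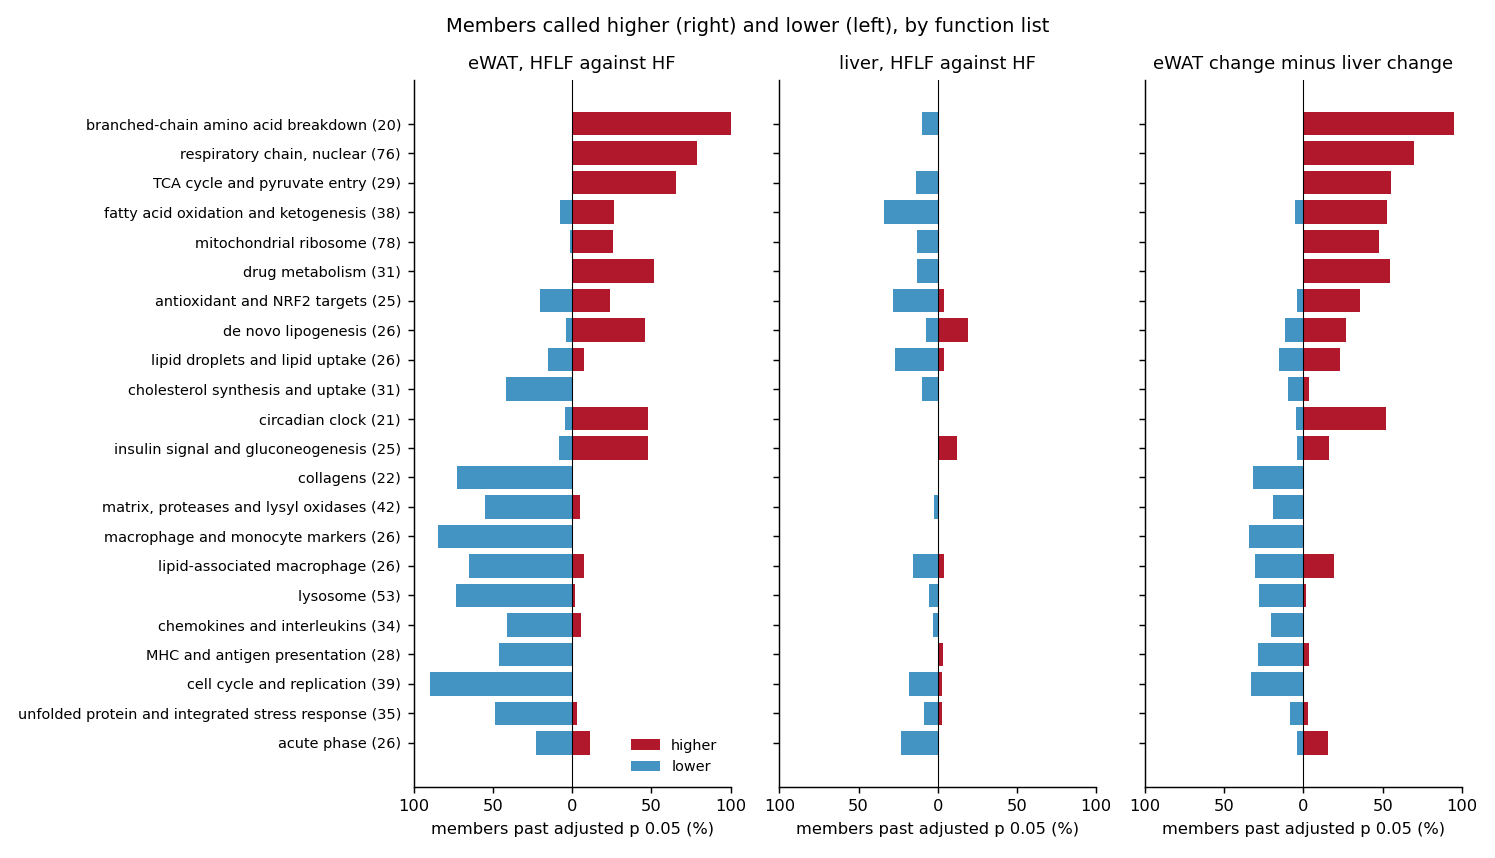
Share of each function list's members (number in both tables in brackets) called higher, to the right, or lower, to the left, in eWAT, in liver and in the tissue difference at an adjusted p under 0.05. Branched-chain amino acid breakdown reaches 20 of 20 members higher in eWAT, and the liver column is short throughout, its longest bar being the 13 of 38 fatty acid oxidation genes that fell.

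Macrophage and lysosomal genes fell in eWAT and had few calls in the liver. Of 26 macrophage and monocyte markers, 22 fell in eWAT and edgeR called none in the liver (medians -1.35 and -0.14), where 1 was lower at an unadjusted p under 0.05, DESeq2 called 1 and voom 0. The tissue difference passed for 9, all negative, but this count was 1 without eWAT HF 3 and 17 without eWAT HF 5. It changed by more than 1.5 times in 18 of the 24 single-library omissions, those of the libraries other than eWAT HF 2, eWAT HFLF 4, liver HF 1, HF 4 and HF 5 and liver HFLF 6. Mrc1, a mannose receptor of resident macrophages, fell by 1.03 in eWAT with a liver value of 0.29 and a tissue difference of -1.32 ± 0.31 (adjusted p = 0.0063).

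Adgre1, which encodes F4/80, ranged from 52.7 to 468 CPM in eWAT HF (median 218) and from 35.6 to 104 in eWAT HFLF (median 42.9). In the liver it ranged from 11.7 to 24.0 CPM in HF and from 10.3 to 20.3 in HFLF. The groups overlapped in both tissues, with eWAT HFLF 2 well above the other HFLF libraries. Adgre1 fell by 2.18 ± 0.40 in eWAT (adjusted p = 4.43e-04). Its tissue difference of -1.82 (adjusted p = 0.0288) was lost without eWAT HF 3 (-1.50) or HF 4 (-1.66), and also under voom (-1.54).

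Of 53 lysosomal genes, 39 fell in eWAT (73.6%, against 19.2% of all genes) and 1 rose (1.89%, against 15.8%). In the liver 3 fell (5.66%, near 4.4%), and 15 had a negative tissue difference (28.3%, against 9.85%). The 15 became 8 without eWAT HF 3 and 26 without eWAT HF 5, and moved by more than 1.5 times without eWAT HF 1, HF 4, HFLF 5 or HFLF 6 too. Galc, a galactosylceramidase, fell by 1.03 in eWAT with a liver value of 0.59 and a tissue difference of -1.62 ± 0.31. Ctso, a cathepsin, went the other way: it rose by 0.30 in eWAT and fell by 0.30 in the liver. Its tissue difference was 0.60 ± 0.11 (adjusted p = 0.00117), its eWAT call was lost without the 4 eWAT libraries with hepatocyte transcripts (0.24), and its liver call without liver HF 1 and HF 4 (-0.27).

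The summed level of macrophage markers (7 of 8 in the eWAT table, none at 0) ran from 1083 to 5854 CPM in eWAT HF and from 824 to 2225 in eWAT HFLF. That of the 10 adipocyte markers ran from 12876 to 32815 CPM in HF and from 27691 to 35999.5 in HFLF. That of the 6 stromal progenitor markers ran from 2984 to 11445 CPM in HF and from 1776 to 2490.3 in HFLF. The first 2 sums overlapped between the diets and the stromal sum, which includes Col1a1 and Col3a1, did not. The longer list of 21 stromal progenitor and myofibroblast genes, without those collagens, had an eWAT median of -0.14. In eWAT 4 of the 21 were lower, near the 19.2% of all genes, and 1 was higher, below the 15.8% of all genes. The tissue difference was negative for 1, below the 9.85% of all genes. These sums moved with the eWAT results, and their part in them was not tested. In bulk tissue, fewer cells of a type and less RNA per cell cannot be told apart.

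**Figure D4:**
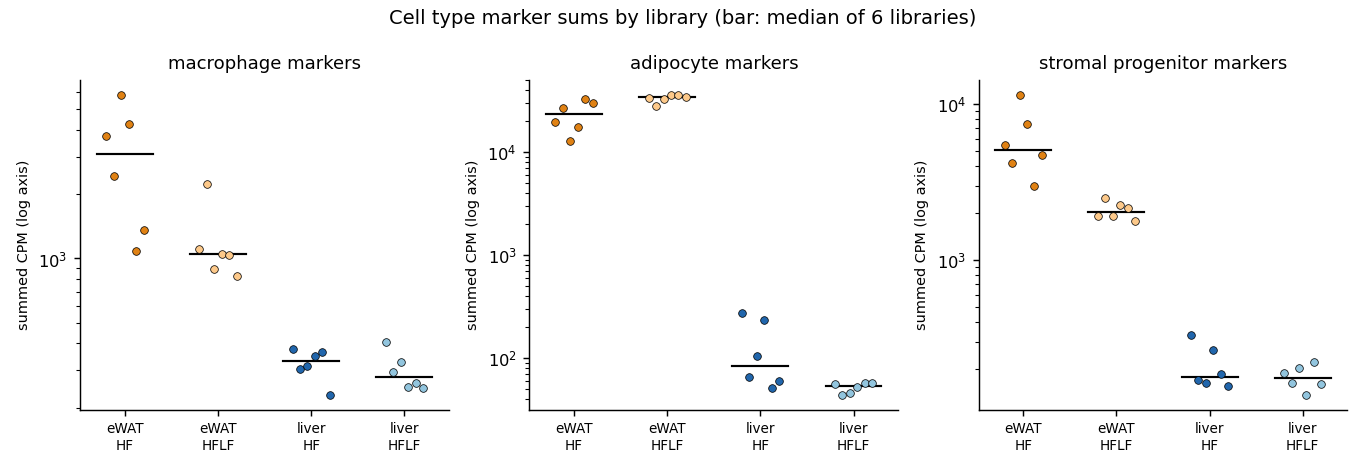
Summed CPM of macrophage, adipocyte and stromal progenitor markers in each library (log axis), with the median of each group of 6 as a bar. In eWAT the macrophage sum is lower in most HFLF libraries, while eWAT HF 5 (1083) and HF 6 (1358) lie at the level of HFLF, and in the liver the adipocyte sum stands out in HF 1 (275) and HF 4 (233).

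Immune signalling and matrix genes fell in eWAT too. Of 34 chemokines, interleukins and their receptors, 14 fell in eWAT (41.2%, against 19.2% of all genes) and 2 rose (5.88%, against 15.8%). In the liver 1 fell (2.94%, near 4.4%). Il1rn, the secreted antagonist of interleukin-1, ranged from 8.05 to 86.2 CPM in eWAT HF (median 20.6) and from 1.0 to 6.15 in eWAT HFLF (median 2.98). Liver levels ran from 1.66 to 7.89 CPM in HF and from 2.52 to 5.24 in HFLF. It fell by 3.40 ± 0.52 in eWAT (adjusted p = 9.45e-05), where the groups were separate, and its tissue difference was -2.93 ± 0.73 (adjusted p = 0.00906). Without eWAT HF 3 that tissue difference was -2.31. Ccl9, a chemokine of myeloid cells, had a tissue difference of -2.20 ± 0.40.

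Of 22 collagen genes, 16 fell in eWAT, edgeR, DESeq2 and voom called none in the liver (0 at an unadjusted p under 0.05), and 7 had a negative tissue difference (medians -0.98 in eWAT and -0.22 in the liver). Col6a3, a chain of the microfibrillar collagen VI that surrounds adipocytes, ranged from 271 to 514 CPM in eWAT HF (median 404) and from 109.8 to 165 in eWAT HFLF (median 128). Across liver libraries it ranged from 11 to 35.5 CPM in HF (median 17.2) and from 13.7 to 29.9 in HFLF (median 19). The eWAT groups were well apart. Col6a3 fell by 1.55 ± 0.24 in eWAT (adjusted p = 9.80e-05) with a tissue difference of -1.70 ± 0.34 (adjusted p = 0.00256). Fbn1, the main protein of microfibrils, had a tissue difference of -1.76, Bgn, a small proteoglycan, of -1.42, and Fn1, fibronectin, of -1.32. Col1a1, the chain of fibrillar collagen I, fell by 1.79 in eWAT, and its tissue difference of -0.89 had an adjusted p of 0.313. Without liver HF 1 and HF 4 that difference was -2.03 and passed, and without the 4 eWAT libraries with hepatocyte transcripts its fall in eWAT was -1.46 and did not pass.

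F7, coagulation factor VII, ranged from 11.8 to 101 CPM in eWAT HF (median 37.9) and from 3.95 to 22 in eWAT HFLF (median 6.17). In the liver, its main source, it ranged from 101 to 178 CPM in HF (median 159.7) and from 152 to 191 in HFLF (median 175). It fell by 2.41 ± 0.41 in eWAT (adjusted p = 2.32e-04), and its tissue difference was -2.63 ± 0.55 (adjusted p = 0.00323). The groups overlapped in both tissues. Hepatocyte marker sums in eWAT had a median of 26.4 CPM in HF and 61.0 in HFLF.

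**Figure D5:**
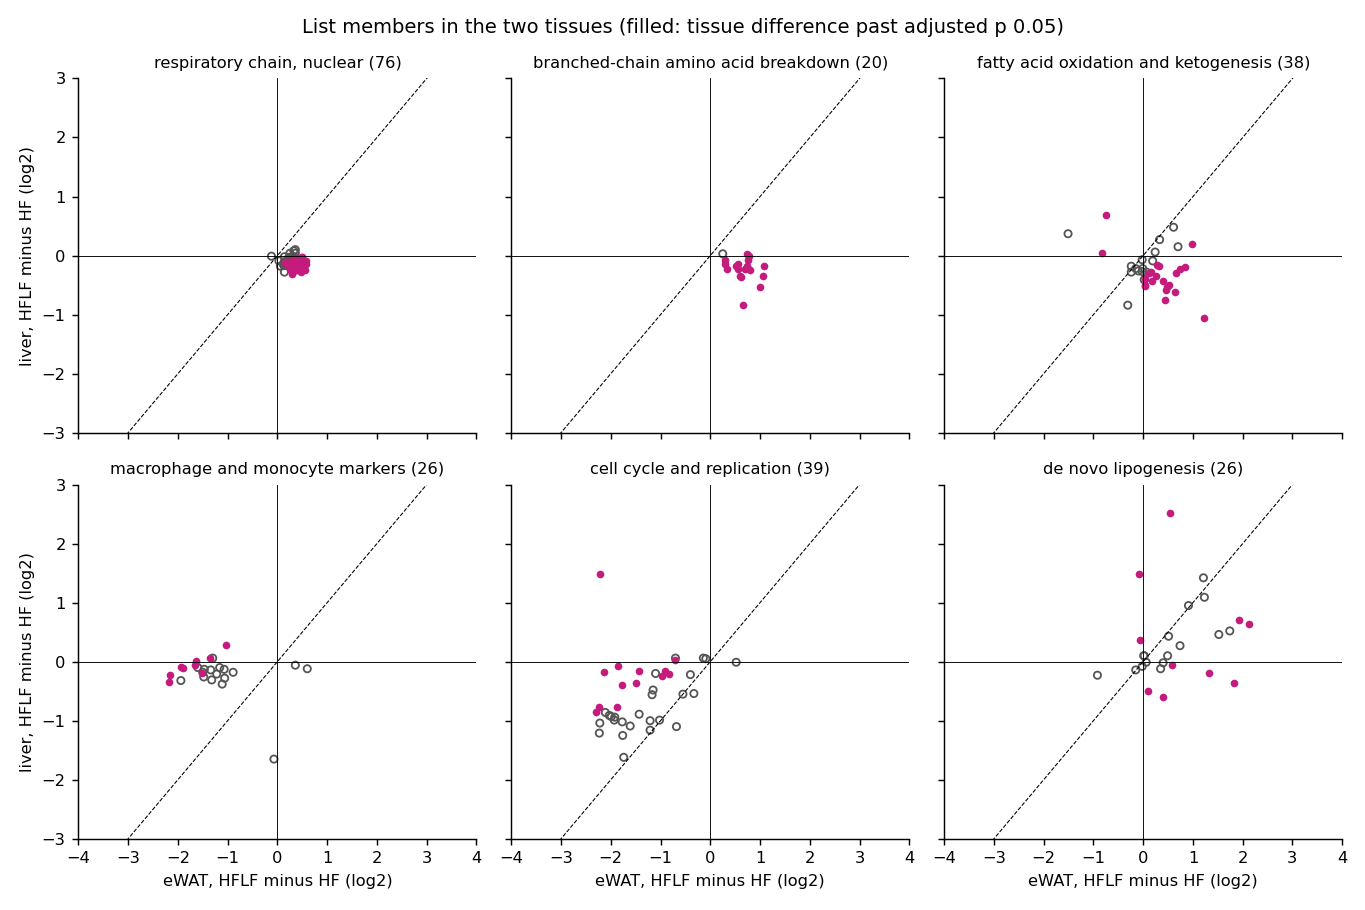
Log2 change in eWAT (x axis) and liver (y axis) of the members of 6 function lists, filled where the tissue difference passed at an adjusted p under 0.05; the dashed line marks equal change. Nearly all respiratory chain and branched-chain amino acid genes lie to the right of 0 near the horizontal axis, most macrophage markers to the left of it, and most cell cycle genes below and to the left, with E2f8, the one cell cycle gene called higher in the liver, at 1.48 there.

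Genes of the cell cycle fell in eWAT and in part also in the liver. Of 39 genes, 35 fell in eWAT and none rose, and 7 fell and 1 rose in the liver. The 7 all fell in eWAT as well, and the medians were -1.44 in eWAT and -0.56 in the liver. The tissue difference was negative for 13, and for 7 without eWAT HF 3. That count also moved by more than 1.5 times without eWAT HF 4 or HFLF 1. The 7 liver falls numbered 2 without liver HF 4 and 11 without eWAT HF 3. They moved by more than 1.5 times without liver HF 1, HF 2, HF 3, HFLF 4, HFLF 5 or HFLF 6 too. Mki67, a marker of cycling cells, fell by 2.22 in eWAT (adjusted p = 2.34e-05) and had a liver value of -1.04 (adjusted p = 0.0721).

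Of these genes, 3 were chosen after their values were seen, to show the 3 patterns: E2f8 changed in opposite ways, Rrm2 fell in eWAT alone and Mcm2 fell in both. Their promoters are printed from 250 bases before to 50 after the start of transcription, from RefSeq on GRCm38.p6. Capitals mark the CCAAT box, read as CCAAT or, on the other strand, as ATTGG. The E2f8 window is chr7:48881547-48881846 on the minus strand, that of Rrm2 is chr12:24708004-24708303 on the plus strand, and that of Mcm2 is chr6:88898731-88899030 on the minus strand.
E2f8: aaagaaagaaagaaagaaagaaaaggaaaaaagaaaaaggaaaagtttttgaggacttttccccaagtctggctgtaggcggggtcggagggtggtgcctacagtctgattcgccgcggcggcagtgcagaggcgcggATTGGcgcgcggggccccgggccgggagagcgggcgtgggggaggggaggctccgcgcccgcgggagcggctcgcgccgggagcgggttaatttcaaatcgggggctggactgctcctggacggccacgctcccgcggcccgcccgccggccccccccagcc
Rrm2: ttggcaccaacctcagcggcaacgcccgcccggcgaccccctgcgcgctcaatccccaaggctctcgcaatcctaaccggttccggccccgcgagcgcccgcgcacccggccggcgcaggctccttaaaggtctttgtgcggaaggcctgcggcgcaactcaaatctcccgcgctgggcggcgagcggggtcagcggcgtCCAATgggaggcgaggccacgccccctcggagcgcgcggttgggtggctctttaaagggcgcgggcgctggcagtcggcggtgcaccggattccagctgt
Mcm2: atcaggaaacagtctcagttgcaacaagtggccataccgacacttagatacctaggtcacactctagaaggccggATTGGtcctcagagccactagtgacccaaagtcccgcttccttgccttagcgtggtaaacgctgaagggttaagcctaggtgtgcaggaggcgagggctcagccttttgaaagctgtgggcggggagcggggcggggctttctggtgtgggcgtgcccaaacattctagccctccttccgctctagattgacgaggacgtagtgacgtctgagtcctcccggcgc
Each window held 1 CCAAT box, beginning 112 bases before the start in E2f8, 50 in Rrm2 and 175 in Mcm2. Of the 32 promoters of cell cycle genes in the table (28 genes), 22 held a CCAAT box (68.8%), against 37.4% of all 32851 promoters and 37.5% of the 12760 promoters of genes in both count tables. The E2F letters TTTCCCGC, TTTCGCGC, TTTGCCGC and TTTGGCGC, searched on both strands, were in none of the 3 windows, in 6 of the 32 (18.8%), in 3.79% of the promoters of genes in both count tables and in 2.26% of all promoters.

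E2f8, an atypical E2F repressor, ranged from 2.12 to 7.22 CPM in eWAT HF (median 4.42) and from 0.538 to 1.83 in eWAT HFLF (median 0.81). The liver values ran from 9.19 to 23.8 CPM in HF (median 15.5) and from 13.8 to 86.8 in HFLF (median 41.2). The eWAT groups were separate, and the lowest HFLF liver lay within the HF range. E2f8 fell by 2.21 ± 0.42 in eWAT (adjusted p = 5.17e-04) and rose by 1.48 ± 0.34 in the liver (adjusted p = 0.012), a tissue difference of -3.68 ± 0.54 (adjusted p = 2.87e-04). Without liver HF 1 and HF 4 the liver value was 1.52 and did not pass.

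Rrm2, the small subunit of ribonucleotide reductase, ranged from 6.9 to 19.5 CPM in eWAT HF (median 12.1) and from 2.73 to 4.98 in eWAT HFLF (median 3.39). In the liver it ranged from 12.7 to 20.2 CPM in HF (median 15.8) and from 9.19 to 19 in HFLF (median 16.7). Its groups were separate in eWAT only. Rrm2 fell by 1.86 ± 0.21 in eWAT (adjusted p = 6.29e-06) with a tissue difference of -1.80 ± 0.29 (adjusted p = 5.33e-04).

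Mcm2, a subunit of the replicative helicase, ranged from 10.1 to 26.0 CPM in eWAT HF (median 17.8) and from 6.07 to 9.3 in eWAT HFLF (median 7.78). Liver levels ran from 5.21 to 12.8 CPM in HF (median 8.31) and from 2.67 to 4.89 in HFLF (median 4.09). Neither pair of groups overlapped. It fell by 1.21 ± 0.22 in eWAT (adjusted p = 4.30e-04) and by 1.16 ± 0.24 in the liver (adjusted p = 0.00658), with a tissue difference of -0.04 (adjusted p = 0.942). Its liver value without liver HF 1 and HF 4 was -0.79 and did not pass. E2f1, an activating E2F factor, ranged from 21.9 to 35.6 CPM in eWAT HF and from 12 to 18.9 in eWAT HFLF. Across liver libraries it ranged from 6.98 to 13.7 CPM in HF and from 3.36 to 6.41 in HFLF. It fell by 0.68 in eWAT and by 1.10 in the liver, with no overlap in either tissue.

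Outside the cell cycle, the genes named by rule for a change in both tissues were of mixed function. Gda, the guanine deaminase of purine breakdown, ranged from 129 to 183 CPM in eWAT HF (median 151) and from 80.1 to 114 in eWAT HFLF (median 93.0). The liver values ran from 32.1 to 46.0 CPM in HF (median 41.8) and from 10.9 to 21.8 in HFLF (median 19.8). Neither pair overlapped. Gda fell by 0.67 ± 0.13 in eWAT (adjusted p = 4.72e-04) and by 1.17 ± 0.13 in the liver (adjusted p = 3.16e-05). Tsku, a secreted proteoglycan made by the liver, fell by 1.2 in eWAT and 1.27 in the liver. Lamb3, a laminin chain, fell by 1.44 and 1.28, and Ehd1, a regulator of endosome recycling, fell by 0.34 and 0.44. Phc3, a Polycomb protein, rose by 0.30 in eWAT and 0.34 in the liver, and the zinc finger gene Zfp358 rose by 0.39 and 0.45.

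Some acute-phase genes fell in the liver. Of 26 genes, 6 fell there (23.1%, against 4.4% of all genes). In eWAT 6 fell (23.1%, near the 19.2% of all genes) and 3 rose, and 3 genes fell in both tissues. Without liver HF 1 and HF 4 the liver falls numbered 3. Hp, haptoglobin, fell by 1.13 in eWAT and by 0.82 in the liver with a tissue difference of -0.32 (adjusted p = 0.404). Orm2, an acid glycoprotein, fell by 2.48 ± 0.43 in the liver (adjusted p = 0.00215) with an eWAT value of -0.23 and a tissue difference of 2.25 ± 0.60 (adjusted p = 0.0132). That difference did not pass under voom (1.83) or with the replicate number as a block within each tissue (1.99). Orm2 has close paralogs between which reads may be split. Cp, the copper ferroxidase ceruloplasmin, rose by 1.29 in eWAT (adjusted p = 9.35e-06) with a liver value of -0.03 and a tissue difference of 1.31.

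Genes of cholesterol synthesis and of the unfolded protein response fell in eWAT, with negative tissue differences near the share of all genes. Of 31 cholesterol genes, 13 fell in eWAT (41.9%, against 19.2% of all genes), and 8 without eWAT HF 3. In the liver 3 fell (9.68%, against 4.4%). The tissue difference was positive for 1 (3.23%, against 10.9%) and negative for 3 (9.68%, near 9.85%). The liver falls were reduced to 0 without liver HF 1, and by more than 1.5 times without liver HF 2, HF 6, HFLF 2, HFLF 4, HFLF 5 or HFLF 6. The negative differences became 6 without liver HF 1 and moved by more than 1.5 times without eWAT HF 5. Of 35 unfolded protein and stress genes, 17 fell in eWAT (48.6%, against 19.2%) and 1 rose. In the liver 3 fell (8.57%, against 4.4%) and 1 rose. The tissue difference was positive for 1 (2.86%, against 10.9%) and negative for 3 (8.57%, near 9.85%). The negative differences became 7 without eWAT HF 5 and moved by more than 1.5 times without eWAT HFLF 4, liver HF 3 or liver HFLF 5, and the 3 liver falls ranged from 0 without liver HF 3 to 5 without liver HFLF 2. Hspa5, the chaperone BiP, fell by 0.76 in eWAT (-0.67 and no call without the 4 eWAT libraries with hepatocyte transcripts) and had a liver value of -0.04, and its tissue difference of -0.72 had an adjusted p of 0.0726.

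Genes tied to microRNAs, the subject of the series' title, were described by 2 lists. Of 23 microRNA processing genes, 2 rose in eWAT (8.7%, against 15.8% of all genes) and 1 fell (4.35%, against 19.2%). In the liver 4 rose (17.4%, against 3.32%), and 0 without liver HF 3. The tissue difference was negative for 4 (17.4%, against 9.85%), and for 2 without eWAT HF 3. Both counts of 4 also moved by more than 1.5 times without liver HF 2 or HFLF 3. Dicer1, which cuts microRNA precursors, had the value 0.13 in eWAT (adjusted p = 0.175), rose by 0.24 in the liver (adjusted p = 0.0463) and had a tissue difference of -0.11 (adjusted p = 0.463). Its liver call was lost without any 1 of eWAT HF 2, HF 6, HFLF 2 and HFLF 6, liver HF 1 to HF 4 and liver HFLF 1, 2, 4, 5 and 6 (values of 0.20 to 0.29 over all alternatives). Ago2, the slicer Argonaute, fell by 0.39 in eWAT with a liver value of 0.05 and a tissue difference of -0.44 ± 0.12 (adjusted p = 0.0126). Of 30 known let-7 targets, 12 fell in eWAT (40.0%, against 19.2% of all genes) and 4 rose (13.3%, against 15.8%). The liver had 4 rises (13.3%, against 3.32%), and the tissue difference was negative for 8 (26.7%, against 9.85%). The 4 liver rises became 1 without liver HF 4, and moved by more than 1.5 times without liver HF 1, HF 2, HF 3, HFLF 1, HFLF 2, HFLF 4 or HFLF 5. Hmga1, a chromatin protein, fell by 1.72 in eWAT and had the value 0.21 in the liver. Nras, a small GTPase, fell by 0.55 in eWAT and had the value -0.04 in the liver.

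T and NK cell markers had no called member. Of the 10 T and NK cell markers in both tables (of 33), edgeR called none in eWAT, in the liver or in the tissue difference, with 0 at an unadjusted p under 0.05 and 0 by DESeq2 or voom; 3 were higher in eWAT without eWAT HF 2. Igf1, insulin-like growth factor 1, had values of -0.20 in eWAT and 0.21 in the liver, and Lpl, the lipoprotein lipase, of 0.25 and 0.23, none of which passed.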

How the data were processed

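RNA-seq libraries of liver and eWAT were analysed as deposited. The authors aligned reads with STAR to GRCm38.p6, per the submitters' processing notes; they name no STAR version, counting tool or use of strand. The deposited tables hold whole-number counts per gene, and their names say that genes were kept after a CPM filter. The deposited RPKM tables were not used. Set row by row beside the counts, they implied gene lengths that varied under 5% across libraries for 0.0% of genes in each tissue. Gene IDs and column headers were not matched in that check, so the source of the mismatch was not settled. The 13206 genes in both tables, in 24 libraries, were fitted in 1 model of 4 groups with edgeR 4.0.16 (R 4.3.3; TMM scaling, robust quasi-likelihood test), with Benjamini-Hochberg adjustment over all 13206 genes and a threshold of 0.05. Errors after ± are approximate standard errors of log2 values. Each is the absolute log2 value divided by the square root of the F statistic of its test. Levels of single genes are TMM-scaled CPM, and marker sums are CPM scaled to the library total alone. The design text gives a smaller minimum number of mice than the 6 labelled libraries per group.

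The members and lists were chosen with earlier results of these data known. Genes named had a mean log2 CPM of at least 1 in each tissue; predicted, Mup and antigen receptor genes were left out. They were the 8 largest tissue differences of each sign, the 8 firmest changes the same way and the 8 opposite, up to 4 members per list by the tissue difference and up to 2 changed in both, and a fixed set. Some genes that the rule named are not reported here.

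Alternatives were other scalings (TMM within each tissue, RLE, upper quartile), DESeq2 1.42.0, limma 3.58.1 voom with quality weights, filters, each tissue alone, replicate blocks, no robust estimation, a minimum log2 size of 1, and each library left out. Leaving out libraries with markers of another tissue was added after seeing the data. Replicate pairs differed beyond sampling noise (chi-square per degree of freedom 7.05 to 281.09 over 60 pairs). The fitting code was tested on simulated data.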

Additional observations from a re-analysis of the deposited data

Results flagged for a closer look

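The change from HF to HFLF differed between the tissues for 2734 genes, by the test of the difference itself. Single libraries stood apart from the other 5 of their group in 8 of the 96 groups of values examined, where chance gives about 1 in 20. Cfd was 103 CPM in liver HF 4. Lepr was 5.3 CPM and G6pdx 8.27 CPM in liver HF 1, where Scd1 was 22374 CPM. In eWAT HFLF 2, F7 was 22 CPM, Rrm2 4.98 CPM and Adgre1 104 CPM. E2f1 was 35.6 CPM in eWAT HF 3.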

How the results depend on the processing

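No called value of a named gene changed sign under any alternative run, but the direction with more calls did. Higher eWAT calls numbered 2792 and lower ones 1989 with upper-quartile scaling, and liver calls 517 and 475 with TMM scaling within each tissue. Requiring a log2 size of at least 1 left 811 tissue differences, 907 eWAT calls, 122 liver calls, 528 genes changed in 1 tissue, 35 in both and 138 list members with a tissue difference (389 without that requirement). Without the 4 eWAT libraries with hepatocyte transcripts these were 1702, 2568 in eWAT, 1336 in 1 tissue, 176 in both and 252 list members. Without the 2 with epididymal transcripts there were 1485 genes changed in 1 tissue, 183 in both and 245 list members. Without liver HF 1 and HF 4 there were 295 liver calls and 90 genes changed in both. Voom gave 1643 liver calls, and DESeq2 494 genes changed in both. The other alternatives kept these counts within 1.5 times.

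Leaving out 1 library gave 1966 to 3776 tissue differences, 3557 to 5344 eWAT calls, 494 to 1284 liver calls, 1593 to 3165 genes changed in 1 tissue, 150 to 416 in both and 274 to 501 list members. Of the genes named, 55 of 124 tissue differences, 56 of 134 eWAT calls and 11 of 61 liver calls passed under every alternative run. Whether same-numbered libraries come from 1 mouse is not given in the labels. Replicate numbers were not taken to pair the libraries, because not every pair correlated above 0.1: same-numbered eWAT and liver libraries correlated at -0.056 to 0.146 in HF and -0.007 to 0.121 in HFLF (medians 0.099 and 0.031, against -0.02 and -0.005 between other numbers). An eWAT library correlated best with its own number in 3 of 6 cases in each diet, so pairing of some libraries was not excluded. A replicate block within each tissue gave 2297 tissue differences and a block shared by the tissues of a diet 2227. With 6 libraries a group and bulk tissue, small liver changes are the least settled.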
